A study of Mus musculus with 5 samples.

Results

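The stromal cells of the mouse temporomandibular joint (TMJ) disc were compared between juvenile (3 w) and newborn (3 d) animals. The disc is a pad of fibrocartilage that sits on the head of the lower jaw and lets it glide against the skull. A barcode was taken as a stromal cell when at most 30% of its UMIs came from mitochondrial genes, it had at least 1000 UMIs, the 7 matrix genes Col1a1, Col1a2, Col3a1, Dcn, Fmod, Bgn and Lum together made up at least 1% of its UMIs, and it had 0 UMIs of Pecam1, Cdh5, Ptprc, Tyrobp, Rgs5 and Alas2. A UMI (unique molecular identifier) tags 1 captured transcript, which removes PCR copies from the count. By this rule 9730 of 15169 barcodes at 3 d and 7255 of 9401 at 3 w were stromal cells, 16985 of the 24570 barcodes of both libraries and of the 51948 barcodes of the 5 libraries of the series. The discs came from wild-type, untreated C57BL/6 mice and were digested with Pronase and Collagenase P before 10x Genomics 3′ libraries were made. The 3 d library was made from a bulk suspension of male and female pups and the 3 w library from males, so age and sex differ together between the libraries, and cells were not assigned to animals. With 1 library per age there is no replicate, and no test, standard error or p-value is given: intervals are exact 95% intervals and cover counting error only.

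Fibroblasts and fibrochondrocytes of the disc secrete the collagens, proteoglycans and glycoproteins of its matrix. Small leucine-rich proteoglycans coat collagen fibrils and limit their diameter, large proteoglycans and lubricin resist compression and friction, and elastic fibres are assembled from elastin on a scaffold of fibrillins mostly early in life. Around birth connective tissue cells still divide and use fetal growth factors such as insulin-like growth factor 2, many of whose genes are imprinted, and in mice the imprinted growth genes are known to be switched down in many organs during the first weeks of life.

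The library totals were close, 125130270 UMIs at 3 d and 125427849 UMIs at 3 w, of which the stromal cells held 86171666 and 100723977. The 3 w stromal cells were deeper, with a median of 13108 UMIs and 3340 genes per cell against 8142 UMIs and 2379 genes at 3 d. Thinned to 1000 UMIs per cell, the medians were 583 and 553 genes. The median mitochondrial share was 4.58% at 3 d and 2.88% at 3 w. Of the cells that passed the matrix minimum, 16.9% at 3 d and 10.7% at 3 w were removed by a UMI of the 6 excluded genes. The libraries shared 39 barcode sequences, 17 of them among stromal cells, and no doublet caller was run. Levels are in CPM, UMIs of a gene scaled to 1000000 of the UMIs summed over the stromal cells of a library, and in such sums fewer cells with a transcript and fewer transcripts per cell cannot be told apart, so the share of cells with a UMI after thinning is given beside the main genes. Endothelial cells of the same libraries (at least 3 UMIs of Pecam1 and Cdh5 together and none of Ptprc, Tyrobp, Rgs5 and Alas2, 722 cells at 3 d and 700 at 3 w, median 7220 and 6146.5 UMIs) show what a cell type that should lack stromal transcripts carried: Col1a1 had a UMI in 44.7% of thinned endothelial cells at 3 d and 21.4% at 3 w. For most matrix genes the endothelial level differed between the ages in the same direction as the stromal one, at a lower level, and is given beside part of the results. No maximum of matrix genes was set for the endothelial cells, so mixed barcodes may be among them. At 3 w the thinned endothelial cells had a median of 0 UMIs of fibrillar collagens, but their 90th percentile was 14. The summed endothelial level of such genes can thus come from a minority of cells.

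Of 27998 genes listed, 9591 had a mean of at least 5 CPM over both libraries. Of these, 1565 (16.3%) were at least 2-fold higher at 3 w and 1278 (13.3%) at least 2-fold lower. The median log2 ratio of 3 w over 3 d was 0.06. At least 4-fold differences were found for 426 higher and 417 lower genes, and at least 10-fold ones for 123 higher and 167 lower genes. A gene near 0 in one library passed the minimum only by being high in the other. The 10 genes with most UMIs took 10.1% of stromal UMIs at 3 d and 15.8% at 3 w. When the 3 d cells were limited to the 2202 with a UMI of a Y-linked gene and none of Xist, 1515 genes were at least 2-fold higher and 1353 at least 2-fold lower, of which 1438 and 1214 were also so with all cells.

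**Figure D1:**
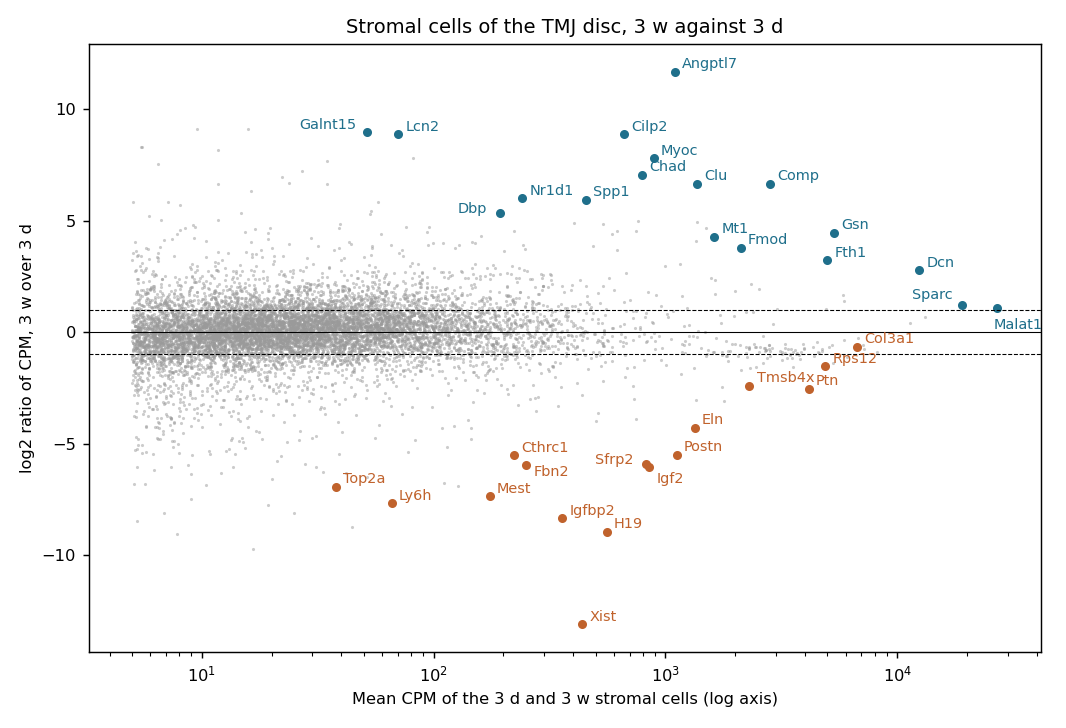
Each point is 1 of the 9591 genes, with its mean CPM over the stromal cells of both libraries on a log axis (horizontal) and the log2 ratio of CPM, 3 w over 3 d (vertical). Dashed lines mark 2-fold differences. Angptl7 (3271-fold higher at 3 w) and Xist lie farthest from 0, and ribosomal protein genes, Rps12 among them, lie around and mostly above the lower line at high levels.

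The genes used to choose the cells did not all differ in one direction. Dcn, which encodes the small proteoglycan decorin, was at 3175 CPM at 3 d and 21764.5 CPM at 3 w, 6.86-fold higher, and Fmod (fibromodulin) was at 287 and 3933 CPM, 13.7-fold higher. Bgn (biglycan) was at 3197 and 6648 CPM, Col1a1 and Col1a2, the chains of type I collagen, were 1.33-fold and 1.61-fold higher at 3 w, and Col3a1 (8227 and 5168 CPM) and Lum (1352 and 566 CPM) were lower at 3 w. These levels are partly set by the rule, which asked for 1% of UMIs from the 7 genes together. In the cells kept, their median share was 3.31% at 3 d and 5.90% at 3 w, and the 10th percentile was 1.79% and 2.78%. The minimum itself removed 1917 barcodes at 3 d and 1173 at 3 w, so these shares are no check of the rule. After thinning, Col1a1 had a UMI in 98.9% of the 3 d cells and 96.2% of the 3 w cells, and Dcn in 76.9% and 99.5%, which describes the chosen cells and is no check of them, since both genes chose them.

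The small leucine-rich proteoglycans differed in both directions between the ages, with more members at least 2-fold higher than lower at 3 w. Of 16 genes, 13 passed the minimum level: 7 were at least 2-fold higher (53.8%, against 16.3% of all genes tested), 4 at least 2-fold lower (30.8%, against 13.3%), and the median log2 ratio was 1.06. Without the 4 that the rule used (Dcn, Bgn, Fmod and Lum), 9 genes remained with 4 at least 2-fold higher, 3 at least 2-fold lower and a median of 0.47. Chad encodes chondroadherin, a cartilage protein that binds collagen and integrins. It was at 11.9 CPM at 3 d and 1571 CPM at 3 w, 132-fold higher (interval 124 to 141), with a UMI in 1.09% and 43.8% of thinned cells. Its endothelial levels were 3.20 and 392 CPM. Prelp, which anchors matrix to basement membrane proteoglycans, was at 62.4 and 1438 CPM, 23.0-fold higher. Omd (osteomodulin) at 2.56 and 20.3 CPM and Ecm2 at 67.7 and 212 CPM were also past 2-fold. In the other direction stood Aspn (asporin, a TGF-beta-binding member) at 885 and 193 CPM, 4.58-fold lower, Ogn (osteoglycin) at 702 and 223 CPM, 3.15-fold lower, and Tsku at 7.57 and 2.97 CPM. The group thus held its largest members in both directions: the summed level was 9810 CPM at 3 d and 36631 CPM at 3 w, and Dcn alone made up most of the difference.

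Of 23 genes of cartilage matrix and joint lubrication that passed, 13 (56.5%, against 16.3% of all genes) were at least 2-fold higher at 3 w and 6 (26.1%, against 13.3%) at least 2-fold lower, with a median log2 ratio of 1.21 and a sum of 3933 CPM at 3 d and 21737 CPM at 3 w. Comp encodes cartilage oligomeric matrix protein, a pentamer that bridges collagen fibrils. It was at 55.5 CPM at 3 d and 5606 CPM at 3 w, 101-fold higher (98.1 to 104), and had a UMI in 5.08% and 86.2% of thinned stromal cells, against 1.25% and 18.4% of endothelial cells. Cilp2 (cartilage intermediate layer protein 2) lies at chr8:69880369-69887687 (GRCm38), on the same chromosome as Comp (chr8:70373558-70382066). Cilp2 was at 2.83 and 1316 CPM, 465-fold higher. Its paralog Cilp was at 46.6 and 1477 CPM, 31.7-fold higher. The endothelial levels were 0.872 and 328 CPM for Cilp2 and 8.43 and 423 CPM for Cilp.

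Prg4 encodes lubricin, the boundary lubricant made by cells at joint surfaces. It was at 114 CPM at 3 d and 2873 CPM at 3 w, 25.3-fold higher, and 42.4-fold higher when at least 3% of UMIs from the matrix genes was asked for. After thinning 5.16% of 3 d cells and 61.8% of 3 w cells had a Prg4 UMI. Endothelial cells had 19.2 and 717 CPM of Prg4. Has1, a hyaluronan synthase of the synovial lining, was at 5.55 and 147 CPM, 26.5-fold higher. Mgp (matrix Gla protein, an inhibitor of calcification) was at 857 and 3817 CPM, 4.46-fold higher, and Fn1 (fibronectin) at 792 and 1675 CPM, 2.12-fold higher. Aggrecan and versican were lower and their link protein higher. Acan (aggrecan) was at 102 CPM at 3 d and 27.7 CPM at 3 w, 3.69-fold lower, Vcan (versican) was 7.43-fold lower, and Hapln1, which links such proteoglycans to hyaluronan, was at 48.3 and 111 CPM. Matn2, Matn4, Thbs3 and Lect1 were also at least 2-fold lower, but Lect1 had a ratio of 0.513 against 0.246 when at least 3% matrix genes were asked for. Sox9, the transcription factor of chondrocytes, was at 184 and 206 CPM. Col2a1, the collagen of hyaline cartilage, was at 9.69 and 23.9 CPM, but 449 of its 2411 UMIs at 3 w came from 1 cell and 96.4% of the 3 w cells had none.

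**Figure D2:**
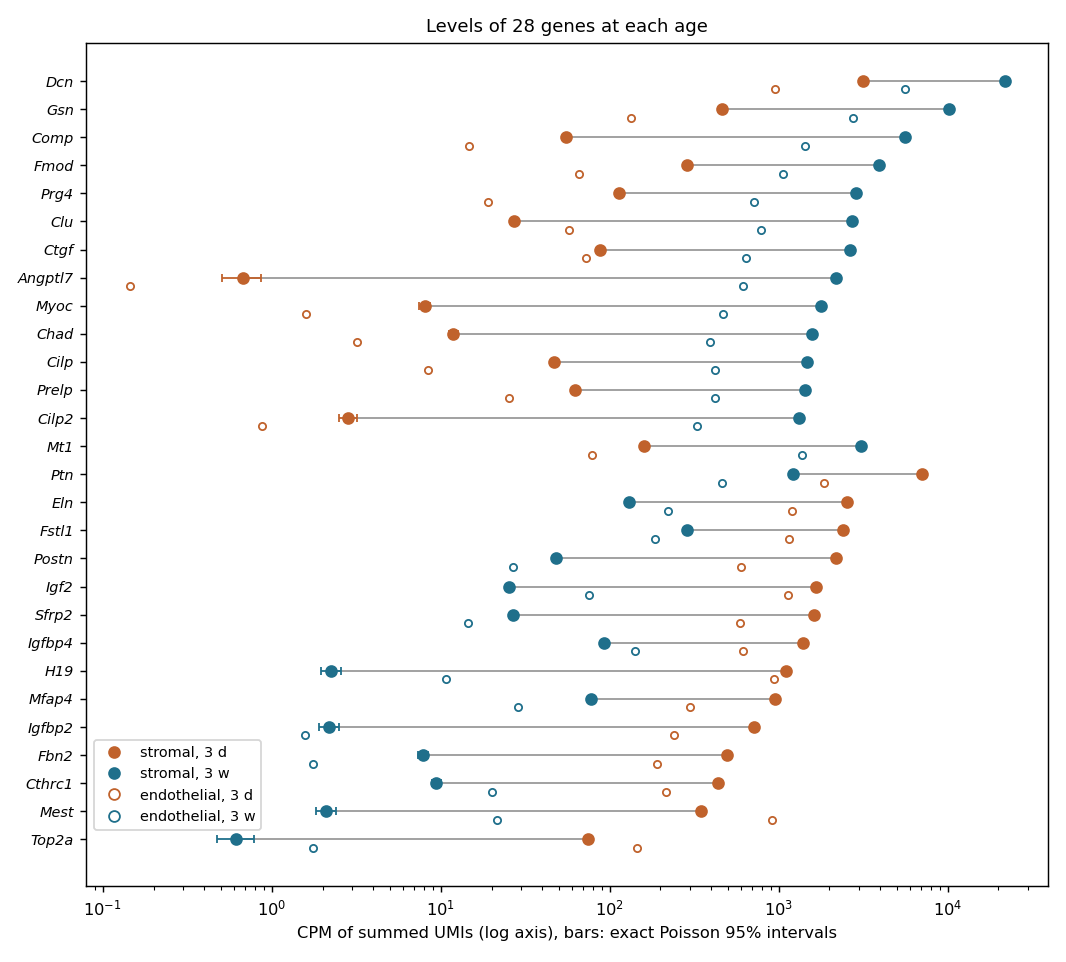
CPM on a log axis of 28 genes in stromal cells (filled points, with exact Poisson 95% intervals) and endothelial cells (open points) at 3 d and 3 w. Of the upper 14 genes, all higher at 3 w, Angptl7, Cilp2 and Myoc start below 10 CPM at 3 d, and of the lower 14 genes, H19, Igfbp2, Mest and Top2a end below 3 CPM at 3 w. The open points lie to the left of the filled ones for most of the matrix genes and shift in the same direction.

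The gene with the largest ratio of all those named was Angptl7, which encodes a secreted angiopoietin-like protein (chr4:148495183-148500460, minus strand, within the bounds of Mtor). It was at 0.673 CPM at 3 d, from 58 UMIs in 9730 cells, and at 2201 CPM at 3 w, from 221738 UMIs, 3271-fold higher (2530 to 4307), and 1515-fold higher when each cell was thinned to 1000 UMIs. The 3 d level is thus close to nothing, and the ratio rests on the few UMIs there. Myoc (myocilin, a secreted glycoprotein known from the eye's outflow tissue) was at 8.03 and 1772 CPM, 221-fold higher. In endothelial cells Angptl7 was at 0.145 and 618 CPM and Myoc at 1.60 and 468 CPM. At 3 w the stromal level was 3.56 times the endothelial one for Angptl7 and 3.78 times for Myoc, against 3.76 times for Col1a1. Whether endothelial cells make these transcripts was not tested. Clu encodes clusterin, an extracellular chaperone. It was at 27.1 and 2714 CPM, 100-fold higher, and was higher in endothelial cells too (57.6 and 792 CPM). Gsn (gelsolin, which severs actin filaments and has a secreted form) was at 464 CPM at 3 d and 10166 CPM at 3 w, 21.9-fold higher. Endothelial cells had 133 and 2748 CPM of Gsn. Fth1 (ferritin heavy chain, which stores iron) was at 969 and 8993 CPM, 9.29-fold higher. Ctgf, the matricellular connective tissue growth factor, was at 87.6 and 2662 CPM, 30.4-fold higher.

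Smaller genes among the 15 largest ratios were Galnt15, a glycosyltransferase that starts mucin-type O-glycans (0.209 and 103 CPM), Lcn2, the iron-carrier binding lipocalin 2 (0.302 and 141 CPM), Aoc2, an amine oxidase (0.731 and 162 CPM), Tmem140 (2.02 and 114 CPM), Cp, the copper oxidase ceruloplasmin (2.46 and 104.96 CPM), and Cytl1, a cytokine-like protein of cartilage (2.61 and 104 CPM). Galnt15 was 495-fold higher and 279-fold higher when the 6 excluded genes were read after thinning, but 10.4% of thinned stromal cells had a UMI at 3 w against 13.4% of endothelial cells, so the transcript was no more frequent in stromal cells. Lcn2 was 466-fold higher and 290-fold higher as a mean over cells. Tmem140 was at 21.2 and 183 CPM in endothelial cells, above its stromal level at both ages. Endothelial levels were 4.36 and 90.5 CPM for Lcn2 and 3.63 and 77.3 CPM for Cp, above the stromal ones at 3 d only. For Aoc2 and Cytl1 the endothelial levels were not above the stromal ones at either age. Cytl1 was 39.8-fold higher, with 1458 of its 10465 UMIs at 3 w in 1 cell and 87.6% of cells without any. Its ratio was 128 when at least 3% matrix genes were asked for and 24.1 as a mean over cells. Why these ratios differ was not tested.

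The spread over cells differed between these genes. The 726 of the 7255 cells at 3 w (the top 10%) with most UMIs of a gene held 26.9% of the Dcn UMIs, 31.2% of those of Gsn, 30.2% of those of Prelp and 37.1% of those of Comp. Such cells held 54.0% of the Chad UMIs, 52.7% of those of Angptl7, 51.3% of those of Clu and 46.8% of those of Prg4. They held 69.1% of the Spp1 UMIs, 85.9% of those of Lcn2, 89.7% of those of Ibsp and 98.3% of those of Cytl1. At 3 w 47.4% of the cells had no Spp1 UMI. A level summed over all stromal cells therefore stood for nearly every cell in the first set and, for Lcn2, Ibsp and Cytl1, for a minority. Deep cells weigh more in these shares, since the cells were not thinned for them.

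**Figure D3:**
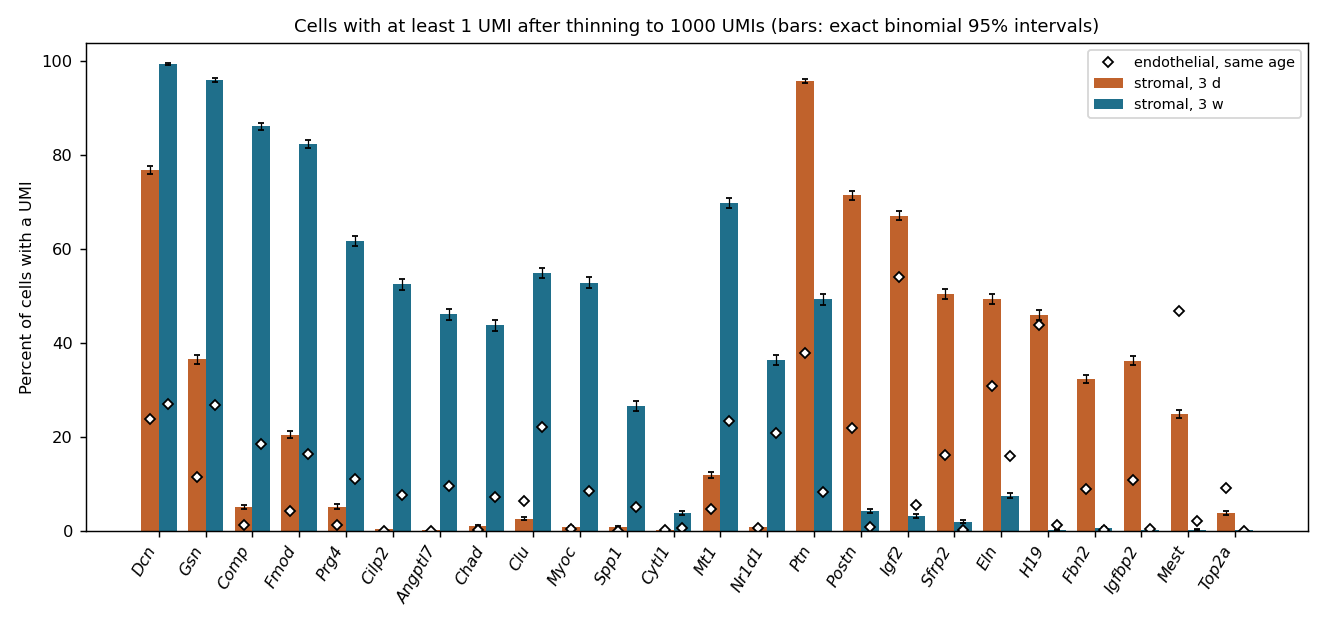
Percent of cells with at least 1 UMI of a gene after each cell was thinned to 1000 UMIs, in stromal cells at 3 d and 3 w (bars, with exact binomial 95% intervals) and in endothelial cells of the same age (diamonds). Comp had a UMI in 5.08% and 86.2% of stromal cells and Postn in 71.4% and 4.14%, while for H19 at 3 d the stromal share (46.0%) and the endothelial share (43.8%) were close.

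Collagen chains differed in both directions. Of 11 fibrillar collagen genes, 3 (27.3%, against 16.3% of all genes) were at least 2-fold higher and 4 (36.4%, against 13.3%) lower. The median log2 ratio was 0.01 and the sums were 30784 and 36643 CPM, mostly from Col1a1, Col1a2 and Col3a1, which the rule used. Without those 3 genes the sums were 2715 CPM at 3 d and 2248 CPM at 3 w, 1.21-fold lower, and the median was -0.64. Of 25 other collagen genes 18 passed the minimum, 3 were at least 2-fold higher (16.7%, against 16.3% of all genes) and 8 at least 2-fold lower (44.4%, against 13.3%), with a median of -0.56. Col5a1, a minor chain that starts fibrils, was at 839 CPM at 3 d and 343 CPM at 3 w, 2.45-fold lower. Col12a1 and Col14a1, which decorate fibril surfaces, were at 451 and 87.2 CPM and at 789 and 310 CPM. The cartilage chain Col11a1 was at 146 and 296 CPM, 2.02-fold higher, and Col11a2 at 3.56 and 18.9 CPM. Col8a1, of short-chain type VIII collagen, was at 256 and 658 CPM, 2.57-fold higher.

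The enzymes and chaperones that fold and cross-link collagen were at least 2-fold lower at 3 w in 9 of 26 (34.6%, against 13.3% of all genes) and at least 2-fold higher in 4 (15.4%, against 16.3%). Serpinh1, the collagen chaperone Hsp47, was at 1034 CPM at 3 d and 334 CPM at 3 w, P4hb (protein disulfide isomerase, the beta subunit of prolyl 4-hydroxylase) at 479 and 168 CPM, and Loxl1, the lysyl oxidase tied to elastic fibres, at 265 and 43.3 CPM, 6.13-fold lower. Those 4 were Plod2 (telopeptide lysyl hydroxylase, 124 and 501 CPM), Pcolce2 (an enhancer of procollagen cleavage, 12.7 and 135 CPM), Adamts2 (a procollagen N-proteinase, 37.9 and 111 CPM) and Sparc, the collagen-binding glycoprotein osteonectin, at 11414 and 26754 CPM. Lox was at 261 and 353 CPM.

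Elastic fibre genes were lower at 3 w. Of 21 entries for 20 genes (Ltbp4 is listed under 2 identifiers) 18 passed the minimum, with a median log2 ratio of -2.17. Of these, 13 (72.2%, against 13.3% of all genes tested) were at least 2-fold lower and 1 (5.56%, against 16.3%) at least 2-fold higher. Eln, which encodes elastin, was at 2542 CPM at 3 d and 130 CPM at 3 w, 19.6-fold lower, with a UMI in 49.4% and 7.48% of thinned cells and in 30.7% and 15.9% of endothelial cells. Fbn2, the fibrillin of early microfibrils, was at 495 and 7.86 CPM, 63.0-fold lower. Mfap4, Mfap2 and Mfap5, microfibril-associated proteins, were at 949, 768 and 487 CPM at 3 d and at 77.7, 108 and 63.0 CPM at 3 w. Fbln5, which tethers elastin to cells, was at 286 and 42.8 CPM. Fbn1, the fibrillin that persists in adults, was at 485 and 171 CPM, 2.83-fold lower. Fbln1, Fbln2, Ltbp3 and the entry of Ltbp4 that passed differed by less than 2-fold, and Fbln7, an adhesion protein of the same family, was 11.6-fold higher (11.2 and 130 CPM). In endothelial cells the summed level of the list was 3686 and 1664 CPM.

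Matricellular proteins, which act on cells from the matrix, differed both ways. Of 22 genes, 8 (36.4%, against 16.3% of all genes) were at least 2-fold higher and 10 (45.5%, against 13.3%) at least 2-fold lower. Postn (periostin, made by fibroblasts of growing and loaded tissue) was at 2185 CPM at 3 d and 48.0 CPM at 3 w, 45.6-fold lower. Spon2, Nov (CCN3) and Spock3 were at 207, 232 and 29.8 CPM at 3 d and at 10.4, 12.7 and 0.804 CPM at 3 w. Tnc (tenascin C) was at 191 and 39.4 CPM. Besides Ctgf and Sparc, Igfbp7 (880 and 3113 CPM), Tnxb (tenascin X, 65.4 and 189 CPM) and Wisp2 (CCN5, 5.78 and 31.1 CPM) were past 2-fold higher. Cthrc1, a secreted protein of collagen-producing fibroblasts, was at 435 and 9.43 CPM, 46.1-fold lower, and C1qtnf3 at 253 and 2.12 CPM, 119-fold lower.

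Genes listed as imprinted, expressed from 1 parental copy in at least some tissues, were at least 2-fold lower at 3 w in 15 of 21 (71.4%, against 13.3% of all genes). Their median log2 ratio was -2.11. Dcn, which is also a gene of the rule, was the only member of the list at least 2-fold higher (4.76%, against 16.3% of all genes). Without Dcn their summed level was 12202 CPM at 3 d and 4069 CPM at 3 w, 3.00-fold lower. H19, a long noncoding RNA (chr7:142575529-142578143), was at 1112 CPM at 3 d and 2.25 CPM at 3 w, 493-fold lower, and its neighbour Igf2 (chr7:142650766-142666816), the fetal growth factor, was at 1674 and 25.5 CPM, 65.6-fold lower. H19 was lower still when at least 3% matrix genes were asked for, with a ratio of 0.000992 against 0.00203. Mest was at 348 and 2.10 CPM, 165-fold lower, Peg3 at 946 and 59.4 CPM, and the growth inhibitors Cdkn1c and Grb10 at 1218 and 227 CPM and at 280 and 90.5 CPM. Dlk1, a Notch-like inhibitor of differentiation, was at 1066.5 and 268 CPM. The same genes were lower in endothelial cells, where H19 was at 936 and 10.7 CPM, Igf2 at 1140 and 75.2 CPM and Mest at 912 and 21.4 CPM. Kcnq1ot1 was at 256 and 487 CPM and Gnas at 1799.9 and 1516 CPM.

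Of the insulin-like growth factor axis, 15 of 19 genes passed. Of these, 5 (33.3%, against 16.3% of all genes) were at least 2-fold higher and 7 (46.7%, against 13.3%) at least 2-fold lower. The ligands Igf2 and Igf1 (509 and 44.1 CPM, 11.5-fold lower) were both lower at 3 w. The binding proteins were split: Igfbp2 was at 717 and 2.19 CPM, 327-fold lower, and Igfbp4 at 1398 and 93.2 CPM, whereas Igfbp5 was at 379 and 1026 CPM and Igfbp6, which prefers IGF2, at 83.5 and 439 CPM, 5.26-fold higher. The receptor gene Igf1r was at 67.3 and 110 CPM. Pappa, a protease that frees IGF from its binding proteins, was at 105.3 and 323 CPM, and its paralog Pappa2 at 26.8 and 1.81 CPM.

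All 37 cell cycle genes that passed were lower at 3 w, 31 of them (83.8%, against 13.3% of all genes) at least 2-fold. Their median log2 ratio was -3.37. Top2a, which untangles chromosomes in dividing cells, was at 74.9 CPM at 3 d and 0.616 CPM at 3 w, and Mki67 at 27.1 and 0.606 CPM. After thinning the ratio of Top2a was 0.0156 against 0.00822 and that of Mki67 0.0527 against 0.0224. After thinning, 11.3% of stromal cells at 3 d (10.7 to 12.0) and 1.03% at 3 w (0.814 to 1.29) had a UMI of any of 10 mitotic genes. In endothelial cells these shares were 28.4% and 1.43%. The 6 members that differed by less than 2-fold were the G1 cyclin Ccnd2, at 310 and 300 CPM, the replication clamp Pcna and the helicase subunits Mcm3, Mcm4, Mcm6 and Mcm7. Stmn1 (stathmin, which depolymerizes microtubules) was at 222 and 6.25 CPM, 35.6-fold lower. When cells with any mitotic UMI before thinning were left out, 6375 cells remained at 3 d and 6421 at 3 w. In the remaining cells Stmn1 had a ratio of 0.0793 against 0.0281 and Pcna one of 1.11 against 0.734. Over all genes 1610 were then at least 2-fold higher and 1151 lower. The cells left out were chosen by members of the same list.

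Among signalling genes Ptn had the largest difference in CPM. Ptn (pleiotrophin, a secreted heparin-binding factor) was at 7086 CPM at 3 d and 1213 CPM at 3 w, 5.84-fold lower, and its paralog Mdk (midkine) at 625 and 63.5 CPM, 9.83-fold lower. Ptn had a UMI in 95.8% and 49.3% of thinned cells. Of 18 Wnt modulators that passed, 3 were at least 2-fold higher (16.7%, against 16.3% of all genes) and 8 at least 2-fold lower (44.4%, against 13.3%). Sfrp2, a secreted Wnt-binding protein, was at 1618 and 26.9 CPM, 60.1-fold lower, the agonist Rspo3 at 28.9 and 1.06 CPM, the inhibitor Dkk2 at 29.1 and 0.953 CPM and the receptor Lgr5 at 113 and 14.8 CPM. Higher were the inhibitors Wif1 (10.6 and 53.1 CPM), Dkk3 (111 and 236 CPM) and Sfrp4 (3.47 and 11.6 CPM). Sfrp2 had a UMI in 50.5% of thinned cells at 3 d and 1.94% at 3 w.

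Of 32 genes of TGF-beta and BMP signalling 8 were at least 2-fold higher (25%, against 16.3% of all genes), 6 at least 2-fold lower (18.8%, against 13.3%) and 18 within 2-fold. Inhba, the activin A subunit, was at 4.99 and 81.3 CPM, 16.3-fold higher, Chrdl1, a BMP antagonist, at 14.6 and 94.0 CPM, and Bambi, a decoy receptor, at 54.9 and 235 CPM. Fstl1 (follistatin-like 1) was at 2415 and 289 CPM, 8.37-fold lower, Id2 at 354 and 60.6 CPM and Bmp3 at 10.3 and 0.268 CPM. The receptors Tgfbr1, Tgfbr2, Bmpr1a and Bmpr2 all lay within 2-fold. The list of FGF, PDGF, heparin-binding and chemokine signals holds Ptn, Mdk, Ogn and Angptl7. Of its 31 genes that passed, 9 (29.0%, against 16.3%) were at least 2-fold higher and 5 (16.1%, against 13.3%) at least 2-fold lower. Among them were Nt5e (CD73, which makes adenosine, 16.8 and 275 CPM), Pdgfrb (47.0 and 116 CPM) and Cxcl12 (126 and 41.9 CPM).

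Transcription factors of mesenchyme and skeleton were near the background upwards but not downwards: of 48 that passed, 9 were at least 2-fold higher (18.8%, against 16.3%), 14 at least 2-fold lower (29.2%, against 13.3%), and the median log2 ratio was -0.06. Prrx1, Twist1, Tbx18 and Scx, which mark limb and craniofacial mesenchyme and tendon, differed by less than 2-fold (Prrx1 at 817 and 716 CPM, Scx at 85.7 and 145 CPM). Lower at 3 w were Osr1 (135 and 10.8 CPM, 12.6-fold), Sox4 (328 and 64.2 CPM), Sox11 (88.7 and 14.6 CPM), Ebf1 (222 and 50.6 CPM) and Pitx1 (26.7 and 2.89 CPM). Higher were Klf2 (184 and 1163 CPM), Klf4 (236 and 792 CPM), Sox5, a partner of Sox9 in chondrocytes (81.6 and 333 CPM), Runx1 (45.8 and 168 CPM) and Dlx5 (86.9 and 261 CPM). Klf2 and Klf4 were higher in endothelial cells as well, at 1712 and 952 CPM at 3 w against 357 and 205 CPM at 3 d.

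**Figure D4:**
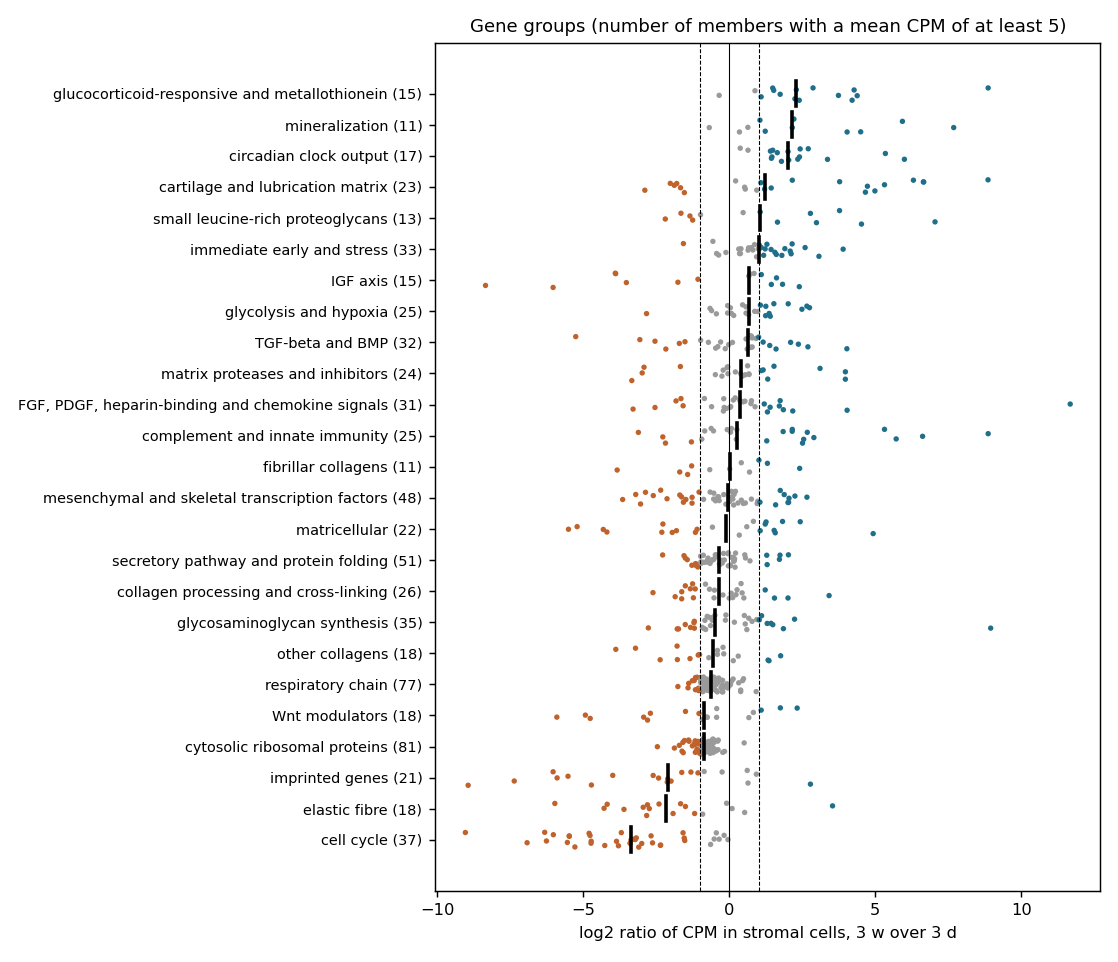
Each point is 1 gene of a list with a mean of at least 5 CPM, placed by its log2 ratio of CPM in stromal cells, 3 w over 3 d, coloured where the difference was at least 2-fold (dashed lines), and the black bar is the median of the list. The medians run from -3.37 for cell cycle genes to 2.30 for glucocorticoid-responsive and metallothionein genes. Some genes are in more than 1 list.

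Immediate early and stress genes respond within minutes to handling, digestion or stimulation of cells. At 3 w, 17 of 33 (51.5%, against 16.3% of all genes) were at least 2-fold higher. At least 2-fold lower was 1 (3.03%, against 13.3%), Egr1 at 1091 and 367 CPM. Atf3 was at 245 CPM at 3 d and 2055 CPM at 3 w, 8.39-fold higher, Cebpb at 30.5 and 455 CPM, Socs3 at 90.4 and 547 CPM and Fosb at 119 and 527 CPM, whereas Fos (1282 and 2159 CPM), Jun and Hspa8 differed by less than 2-fold. The list was higher in endothelial cells too, 9407 and 29914 CPM in sum against 10100 and 18556 CPM in stromal cells. Its part in the differences of other genes was not tested. In single stromal cells the thinned list was uneven: the median was 6 UMIs per 1000 at 3 d and 12 at 3 w, and the highest 10% of cells began at 23 and 52 UMIs.

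Genes known to respond to glucocorticoids, together with the metallothioneins, were at least 2-fold higher in 13 of 15 (86.7%, against 16.3% of all genes). None was at least 2-fold lower (against 13.3%), and the median log2 ratio was 2.30. Mt1 and Mt2, small proteins that bind zinc and copper, were at 160 and 54.0 CPM at 3 d and at 3086 and 1124 CPM at 3 w, 19.3-fold and 20.8-fold higher. After thinning Mt1 had a UMI in 12.0% and 69.8% of stromal cells and in 4.57% and 23.3% of endothelial cells. Glul (glutamine synthetase) was at 34.4 and 459 CPM, Tsc22d3 (GILZ) at 35.3 and 258 CPM, Klf9 at 79.4 and 377 CPM, Errfi1 at 56.1 and 295 CPM and Zbtb16 at 7.84 and 38.5 CPM, while Sgk1 (40.2 and 73.9 CPM) and Ddit4 (32.8 and 25.8 CPM) were within 2-fold. The summed level in endothelial cells was 1023 and 5006 CPM.

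Mt1 and Mt2 are neighbours on chromosome 8 that differed by nearly the same factor, and their promoters are shown. The 250 bases before the RefSeq start (GRCm38.p6, plus strand) are chr8:94178839-94179088 for Mt1 and chr8:94172368-94172617 for Mt2. Capitals mark the core of the metal response element, the site of the zinc-sensing factor MTF1, searched as TGCACNC and TGCGCNC on both strands.
Mt1: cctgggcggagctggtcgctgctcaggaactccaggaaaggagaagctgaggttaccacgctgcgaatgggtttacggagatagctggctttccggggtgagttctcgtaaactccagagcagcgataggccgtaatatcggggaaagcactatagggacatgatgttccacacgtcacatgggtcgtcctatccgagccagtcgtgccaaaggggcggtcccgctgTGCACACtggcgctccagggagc
Mt2: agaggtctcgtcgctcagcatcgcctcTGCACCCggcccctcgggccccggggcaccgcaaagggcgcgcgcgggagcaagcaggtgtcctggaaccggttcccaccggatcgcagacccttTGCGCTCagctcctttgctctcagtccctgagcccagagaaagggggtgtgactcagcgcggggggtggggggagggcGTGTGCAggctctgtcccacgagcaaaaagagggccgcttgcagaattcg
Within these 250 bases Mt1 had 1 match and Mt2 had 3, with no overlap between them. Bases outside this window, on either side, were not searched, so the counts are not those of whole promoters. Of 32851 promoters of this length 21.4% held a match, so that the letters alone are common. Whether these sites bear on the levels of Mt1 and Mt2 was not tested.

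Circadian clock genes were added as a list after the values of Nr1d1 and Dbp had been seen, so their count is a description. All 17 that passed were higher at 3 w, 15 of them (88.2%, against 16.3% of all genes) at least 2-fold. Nr1d1, which encodes the repressor REV-ERBα, was at 7.44 CPM at 3 d and 475 CPM at 3 w, 63.8-fold higher, and Dbp, a clock-driven activator, at 9.33 and 379 CPM, 40.6-fold higher. Ciart, a clock repressor, was at 2.50 and 16.3 CPM, Per1, Per2 and Per3 were 2.80-fold, 2.72-fold and 2.75-fold higher, and Arntl, the positive arm that peaks at the opposite time of day from Nr1d1, was at 10.3 and 13.3 CPM. In endothelial cells Nr1d1 was at 7.99 and 354 CPM and Dbp at 5.67 and 193 CPM. The hour of collection is not given in the sources used here, and the age of the animals and the hour cannot be told apart. The promoter of Ciart (chr3:95882229-95882478, minus strand, same build) is shown for its E-boxes, CACGTG, the site of the CLOCK and BMAL1 pair, in capitals.
Ciart: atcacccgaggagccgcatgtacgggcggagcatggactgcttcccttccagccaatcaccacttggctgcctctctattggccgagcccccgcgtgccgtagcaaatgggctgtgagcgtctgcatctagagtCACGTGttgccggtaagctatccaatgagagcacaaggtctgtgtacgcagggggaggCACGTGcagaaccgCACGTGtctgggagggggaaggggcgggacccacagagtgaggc
It held 3 matches, and 6.02% of the 32851 promoters held any.

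Mineralization genes, 11 of 25 above the minimum, were at least 2-fold higher in 8 (72.7%, against 16.3% of all genes). None was at least 2-fold lower (against 13.3%), and the median log2 ratio was 2.16. Spp1 (osteopontin) was at 14.6 CPM at 3 d and 890 CPM at 3 w, 60.9-fold higher, and 116-fold higher against the 3 d cells with Y-linked UMIs. Ibsp (bone sialoprotein) was at 0.337 and 69.2 CPM, 206-fold higher and 108-fold higher after thinning, with a UMI in 4.05% of thinned 3 w cells. The inhibitors of mineral deposition Mgp and Ank (which exports pyrophosphate, 31.2 and 144 CPM) were higher too. Tnfrsf11b (osteoprotegerin, which restrains osteoclasts) was at 7.97 and 180 CPM, 22.6-fold higher. Enpp1, which makes pyrophosphate, was at 99.6 and 127 CPM.

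Of 24 matrix proteases and inhibitors 7 were at least 2-fold higher (29.2%, against 16.3% of all genes) and 4 at least 2-fold lower (16.7%, against 13.3%). Adamts5, an aggrecanase, was at 11.9 CPM at 3 d and 187 CPM at 3 w, 15.7-fold higher, and Htra3 at 124 and 264 CPM. Mmp14, a membrane-bound collagenase, was at 462 and 58.3 CPM, 7.92-fold lower, and Mmp16 at 59.3 and 5.86 CPM. Mmp2, Timp1, Timp2 and Timp3 lay within 2-fold. Of 25 complement and innate immunity genes 12 (48.0%, against 16.3%) were at least 2-fold higher and 4 (16.0%, against 13.3%) lower. Among the higher ones were the complement component C3 at 0.302 and 15.8 CPM, C4b at 8.41 and 62.6 CPM and Serping1 at 76.5 and 275 CPM. The class I genes H2-D1 and H2-K1 were also among them, at 56.1 and 357 CPM and at 17.0 and 75.6 CPM.

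Cytosolic ribosomal protein genes took 29.2% of stromal UMIs at 3 d and 15.5% at 3 w. Of 81 that passed, 80 were lower at 3 w, 24 (29.6%, against 13.3% of all genes) at least 2-fold. None was 2-fold higher (against 16.3%). Rps12, a subunit protein, was at 7257 and 2498 CPM, and Rpl41, the smallest of these proteins, at 5325 and 1782 CPM. Such genes have many pseudogenes that can share reads. The sum was lower in endothelial cells as well, 225797 CPM at 3 d and 148631 CPM at 3 w. Of 77 respiratory chain genes 67 were lower at 3 w, with a median log2 ratio of -0.63 against 0.06 for all genes. Of the 77, only 12 (15.6%, against 13.3%) were at least 2-fold lower and none at least 2-fold higher (against 16.3%). Their sum was 18060 and 12111 CPM in stromal cells and 21554 and 10196 CPM in endothelial cells. Glycolysis and hypoxia genes were at least 2-fold higher in 10 of 25 (40.0%, against 16.3% of all genes). Among them were Hk2 (14.1 and 88.7 CPM), Pfkp (15.005 and 101 CPM) and Ndrg1 (33.4 and 187 CPM). Car9 was the 1 member at least 2-fold lower (4.00%, against 13.3%). Of 51 genes of the secretory pathway 37 were within 2-fold, 9 at least 2-fold lower (17.6%, against 13.3%), such as Sec61b (687 and 141 CPM), and 5 at least 2-fold higher (9.80%, against 16.3%), such as the stress-responsive Herpud1 (59.3 and 241 CPM). Of 35 glycosaminoglycan synthesis genes 8 were at least 2-fold higher and 8 at least 2-fold lower (22.9% each, against 16.3% and 13.3% of all genes), with Sulf2, which trims heparan sulfate, at 364 and 53.2 CPM.

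**Figure D5:**
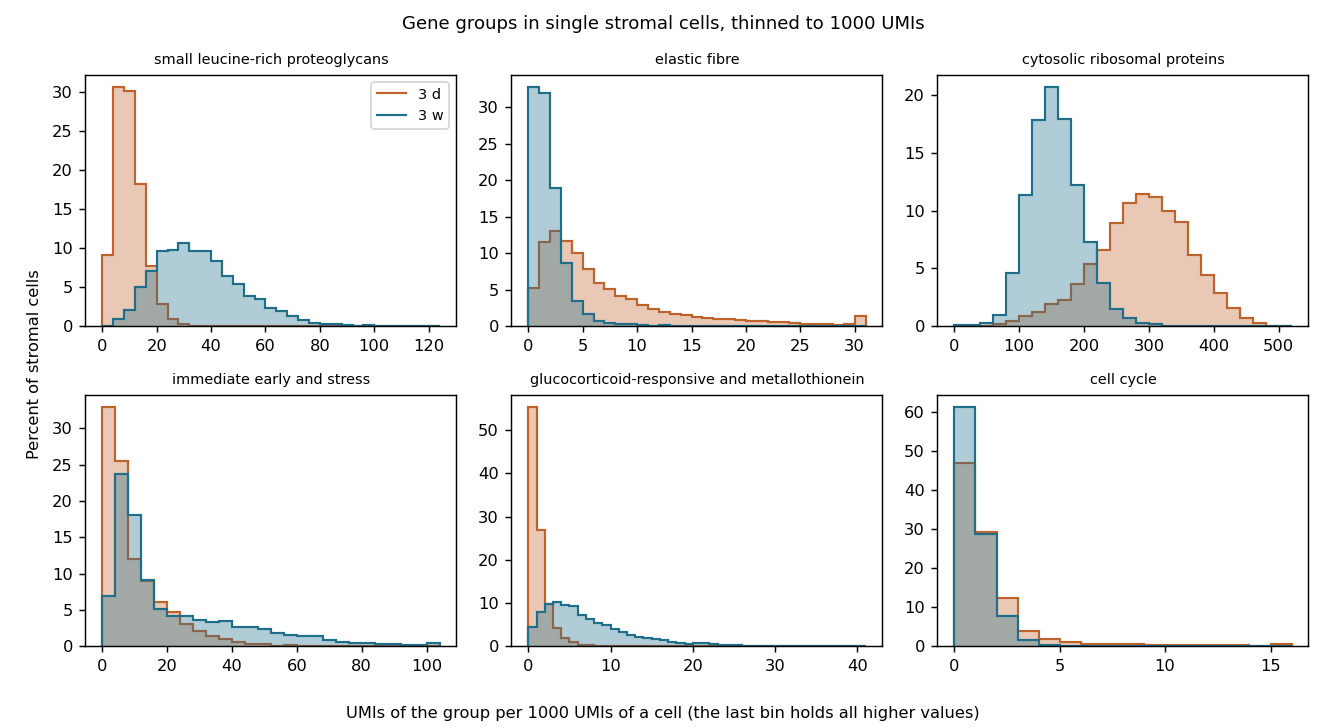
UMIs of 6 gene lists per 1000 UMIs of a stromal cell (horizontal, the last bin holds all higher values) against the percent of cells (vertical) at 3 d and 3 w. The whole distribution differs for the proteoglycans (mean 9.47 and 35.4 UMIs), which include 4 genes used to choose the cells, and ribosomal proteins (290 and 156), whereas elastic fibre genes at 3 d and immediate early genes at 3 w have long upper tails.

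In single thinned cells the lists differed in how many cells shared the difference. Small leucine-rich proteoglycans had a median of 9 UMIs per 1000 at 3 d (10th to 90th percentile 4 to 16) and of 33 at 3 w (17 to 57), a list whose UMIs are mostly those of the rule's own genes Dcn, Bgn, Fmod and Lum. Without those 4 its summed level was 2.07-fold higher at 3 w, against 3.73-fold with them. Ribosomal proteins had medians of 294 (196 to 380) and 154 (108 to 209). Elastic fibre genes had medians of 4 (1 to 16) and 1 (0 to 3) and glucocorticoid-responsive and metallothionein genes of 0 (0 to 2) and 5 (1 to 15). A UMI of any Wnt modulator was found in 70.6% of the thinned 3 d cells and 40.2% of the 3 w cells.

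Markers of endothelial cells, leukocytes, muscle and Schwann cells were low in the stromal cells of both libraries. The erythroid, mural and synovial lining lists had higher sums at 1 or both ages. The 10 endothelial markers summed to 43.7 CPM at 3 d and 17.5 CPM at 3 w, against 8980 and 6999 CPM in endothelial cells, and the 10 macrophage and leukocyte markers to 24.5 and 14.1 CPM, with Pecam1, Cdh5, Ptprc and Tyrobp at 0 by the rule. Myoblast and muscle genes summed to 57.2 and 4.83 CPM, and Schwann genes to 19.1 and 34.5 CPM. The 8 erythroid genes summed to 453 CPM at 3 d and 13.4 CPM at 3 w: Hbb-bs was at 219 and 2.04 CPM, and its UMI share at 3 d after thinning, 18.8% of stromal cells, was no higher than the 18.98% of endothelial cells. The globin genes share near-identical copies. Mural genes summed to 689 and 1191 CPM, nearly all from Ndufa4l2 (584 and 1062.5 CPM), while Rgs5 was at 0 by the rule and Myh11 was at 0.580 and 0.963 CPM. The synovial lining list summed to 210 and 3146 CPM, most of it Prg4, and its members did not go one way: Htra4 was at 0.360 and 44.2 CPM and Col22a1 at 13.8 and 0.933 CPM. Tspan15 was at 12.4 and 3.67 CPM, but had a ratio of 0.978 when at least 3% matrix genes were asked for, where Htra4 had one of 385 against 123.

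The sex-linked genes followed the sexes described. Xist, made from the inactive X chromosome, was at 875 CPM at 3 d and 0.0993 CPM at 3 w, and Ddx3y, on the Y chromosome, at 29.7 and 146 CPM. Against the 3 d cells with Y-linked UMIs and no Xist, Ddx3y was 1.47-fold higher. Its own UMIs helped choose those 3 d cells, which raises its 3 d level, while the 3 w cells were not chosen by it.

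Among the most abundant transcripts, the largest differences in CPM upwards were those of Malat1, a nuclear noncoding RNA (17210 and 36787 CPM), Dcn, Sparc, Gsn and Fth1, followed by Col1a2, Gm42418, Vim (vimentin, 3263 and 8530 CPM), Comp and Fmod. Gm42418 (2773 and 8873 CPM) overlaps other annotated genes and is uncertain. In endothelial cells Malat1 was at 13484 and 35099.5 CPM, Gm42418 at 4113 and 10595 CPM and Fth1 at 1154 and 4641 CPM. Sparc was not higher there at 3 w (8140 and 7960 CPM). Among the largest downwards were those of Ptn, Tpt1, mt-Co3, Rps12, Rplp1, Rpl41, Tmsb4x, Rps14 and Col3a1. Tmsb4x, which binds monomeric actin, was at 3876 and 732 CPM, 5.30-fold lower, and stood at 9477 and 5029 CPM in endothelial cells. Igfbp2, Mest, Hba-a1 (103 and 1.13 CPM), Ly6h (131 and 0.645 CPM), Basp1 (152 and 3.68 CPM) and Stmn1 completed the genes with the largest ratios downwards. Ly6h had a ratio of 0.0131 after thinning against 0.00491.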

How the data were processed

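Discs of 3 d and 3 w mice were profiled with 1 10x Genomics 3′ library each. Per the labels the v2 reagent kit was used and reads were mapped to mm10. The submitters' processing notes name Cell Ranger 3.1 and the file headers cellranger 4.0.0. The authors deposited raw UMI counts per gene and barcode, without normalization, for barcodes already taken as cells (lowest 500 UMIs), and no column went unmapped. Stromal cells were chosen by the rule stated in the report, UMIs were summed per library and divided by their total (CPM), and genes with a mean of at least 5 CPM were compared, the one with the fewest UMIs having 884. Called means past 2-fold. Intervals are exact 95% Poisson, Clopper-Pearson and conditional ratio intervals (scipy 1.17.1, numpy 2.4.6, pandas 2.3.3, Python 3.11.15, figures in matplotlib 3.10.9). Named genes were the 15 largest ratios each way (mean at least 50 CPM, at least 100 UMIs), the 10 largest CPM differences each way, the highest and most different list members, and genes the paper names for fibroblasts. The members and lists were chosen with earlier results of these data known. Genes were placed on GRCm38 with GENCODE annotation, which held 98.7% of the identifiers. The ratio step was tested on simulated data. The 16 w, 78 w and injured libraries were not used here. Some genes that meet the naming rule are not reported here.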

Additional observations from a re-analysis of the deposited data

How the results depend on the processing

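Each choice was changed in turn: the scaling, the minimum level, equal weight per cell, thinning to 1000 UMIs, stricter cell filters, the matrix minimum, large cells, cycling cells and, added after seeing the data, the 3 d cells with Y-linked UMIs and no Xist and the excluded genes read after thinning. The minimum level moved the counts of genes past 2-fold: 982 higher and 576 lower at a mean of at least 20 CPM, and 4040 higher and 5854 lower with no minimum. Under the other 10 alternatives the counts stayed within 1.5 times the main ones. The direction of single genes was checked only for list members and named genes, not for all genes past 2-fold. Among their ratios past 2-fold, those that changed direction were Prc1 (1.02 without cycling cells) and, with the Y-linked 3 d cells, Eif2s3y (0.664), Kdm5d (0.916) and Uty (0.982). UMIs of these Y-linked genes and of Ddx3y chose the 3 d cells but not the 3 w cells. That choice raises their 3 d levels, so their change of direction is no result about the ages. Changes of sign of list medians were checked only where the main median was past 2-fold, so those of smaller medians are not listed. The median log2 ratio of the Schwann list was 3.27 from 2 genes. It was -1.09 with no minimum level and -0.21 with no matrix minimum. That of the epithelial list was 2.40 from 1 gene, and -0.64 with no minimum level. The median log2 ratio of sex-linked genes was -0.0760 with the Y-linked 3 d cells, under the same limit. The causes of the other changes were not tested. With median of ratios scaling 24 of 750 list members and named genes changed their side of 2-fold, and none of those past 2-fold changed direction. No paired analysis was possible because each age has 1 library, and no replicate could be left out. The design limits every result here: age, sex, litter, digestion, library and hour of collection cannot be told apart, and the intervals cover counting error only.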
